A study of Homo sapiens with 9 samples.

Results

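The interleukin-type cytokine genes followed here were IL1B and 7 others, namely IL1A, IL1RN, IL18, IL6, LIF, IL11 and IL32. They were chosen by name, with the higher IL1B signal after induction of ARID1A already known, and every array probe annotated to them was read. They made up 8 of the 20046 genes with a probe on the array, and 11 of its 47323 probes. Expression was measured in OVISE, an established line of ovarian clear cell carcinoma with mutated ARID1A, grown in Matrigel, a basement membrane gel, as a 3-dimensional culture. ARID1A is a DNA-contacting subunit of SWI/SNF, a complex that moves nucleosomes. All groups shared this line and this culture. The first group received the vehicle DMSO. The second received 1 µg/mL doxycycline, which switched on a wild-type ARID1A transgene, and it was the only group given doxycycline. The third received 5 µM GSK126, an inhibitor of EZH2, the Polycomb enzyme that methylates histone H3. There were 3 arrays per group, and replicates 1, 2 and 3 were batches 1, 2 and 3 in the labels. The labels do not say whether the replicates were separate cultures, so the spread between them may be technical. All comparisons come from 1 line, and no array with doxycycline but without the transgene was analysed here.

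IL-1β and IL-1α are ligands of the same receptor, IL1R1, and drive transcription through MyD88, IRAK kinases and NF-kappaB, while the receptor antagonist encoded by IL1RN occupies that receptor without signalling. IL-1β and IL-18 are made as inactive precursors that caspase-1 cleaves within inflammasomes, so their mRNA levels do not report release of the active protein. IL-6, LIF and IL-11 belong to another family, whose receptors share the gp130 chain encoded by IL6ST and act through JAK kinases and STAT3. IL-6 is also a classic product of IL-1 signalling and is known as a growth and inflammatory factor in ovarian clear cell carcinoma.

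The promoters of IL1B and IL6 are shown because these members had the largest differences between the ARID1A and DMSO arrays, in opposite directions. The RefSeq promoter table of GRCh38.p14 held windows for 6 of the 8 members, with IL18 and LIF as the exceptions. Each sequence is the 250 bases before the annotated transcription start, written 5′ to 3′ on the strand of the gene, and capitals mark matches to the motifs searched on both strands. The IL1B window lies at chr2:112836780-112837029 on the minus strand, and the IL6 window at chr7:22726950-22727199 on the plus strand.
IL1B promoter: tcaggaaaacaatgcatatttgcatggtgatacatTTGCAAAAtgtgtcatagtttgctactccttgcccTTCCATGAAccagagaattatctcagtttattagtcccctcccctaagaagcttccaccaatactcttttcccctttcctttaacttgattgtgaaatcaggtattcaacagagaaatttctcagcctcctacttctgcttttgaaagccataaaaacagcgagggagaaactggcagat
IL6 promoter: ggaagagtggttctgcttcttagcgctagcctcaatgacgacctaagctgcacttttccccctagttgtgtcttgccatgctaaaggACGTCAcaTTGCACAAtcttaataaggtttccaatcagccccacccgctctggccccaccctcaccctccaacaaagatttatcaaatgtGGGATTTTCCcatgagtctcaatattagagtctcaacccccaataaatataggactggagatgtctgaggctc
The capitals in the IL1B window are a C/EBP match (TTGCNNAA) from 215 to 208 bases and a STAT match (TTCNNNGAA) from 180 to 172 bases upstream of the start. In the IL6 window they are, in order, a CRE match (TGACGT, here on the opposite strand) from 163 to 158 bases, a C/EBP match from 155 to 148 bases and a match to the NF-kappaB consensus from 73 to 64 bases upstream. No AP-1 letters (TGANTCA) were in either window, whereas both IL1A windows, the IL11 window and 1 of 3 IL1RN windows held them. None of the matches shown overlap. Among 35116 windows of the same length in the table, 9.05% held the C/EBP letters, 6.57% the STAT letters, 6.57% the AP-1 letters, 7.1% the CRE letters and 5.21% the NF-kappaB consensus. A match describes the letters of the reference sequence and says nothing about binding in these cells.

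Each array detected 21317 to 22517 probes at a detection p below 0.05, with a raw median intensity of 316.645 to 348.539. ARID1A probe ILMN_1734496 checked the labels: it was detected on the 3 ARID1A arrays and on none of the 6 others, and was at least 3.74-fold brighter with ARID1A than with DMSO. The second ARID1A probe, ILMN_1797341, was close to the same in all groups, at a mean normalised log2 intensity of 11.07 with DMSO and 10.94 with ARID1A. Of 10 markers of clear cell and epithelial carcinoma, 8 were detected on all 9 arrays, among them PAX8, NAPSA, EPCAM and KRT8. KRT18 was detected on none. The summed linear level of the 8 was 237652 to 247318 on the DMSO arrays, 239667 to 244715 with GSK126 and 270075 to 287378 with ARID1A. The part of this in the cytokine values was not tested. KRT8, an epithelial keratin, rose by 0.46 with ARID1A (limma adjusted p = 0.0295).

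IL1B, the main secreted activator among the members, was measured above background on the ARID1A arrays alone. Its probe, ILMN_1775501, read normalised log2 intensities of 6.39, 6.15 and 6.31 on the DMSO arrays of batches 1 to 3, with raw intensities of 292.69 to 319.57. With ARID1A it read 8.28, 7.65 and 8.68, with raw intensities of 454.77 to 614.99. The detection p was below 0.05 on all 3 ARID1A arrays and on none of the other 6, so the probe was kept through the ARID1A group alone. With GSK126 it read 6.53, 6.55 and 5.89. The ARID1A arrays were all above the other 6, and the DMSO and GSK126 arrays overlapped. The group means were 6.28 ± 0.12 (SD, n = 3) with DMSO, 8.20 ± 0.52 with ARID1A and 6.32 ± 0.37 with GSK126. The fitted difference of ARID1A minus DMSO was 1.92 on the log2 scale (standard error, SE, 0.26). On the DMSO and GSK126 arrays the detection p was 0.075 to 0.469, so these levels were not told apart from background. As a bound on the means, IL1B was at least 2.71-fold higher with ARID1A than with DMSO, and at least 2.73-fold higher than with GSK126. Without background correction the difference from DMSO was 0.86, and it was 0.84 in the authors' value table. As the probe was kept through the ARID1A arrays alone, a difference had to appear, and the limma call for IL1B is no test. That call was lost when batch 1 or batch 3 was left out whole. The order of the groups is therefore ARID1A first, with DMSO and GSK126 not told apart.

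The other agonist of the same receptor, IL1A, was not detected on any of the 9 arrays. Its probe read 6.21, 5.78 and 5.95 with DMSO, 6.15, 5.93 and 6.19 with ARID1A, and 6.21, 5.79 and 5.94 with GSK126. These groups overlapped, and no fold is given for a probe that was not above background.

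IL1RN, the antagonist, was measured on all 9 arrays and was lowest with ARID1A. Its brightest probe, ILMN_1774874, read 9.53, 9.13 and 9.60 with DMSO, 9.05, 8.54 and 8.92 with ARID1A, and 9.20, 9.36 and 9.39 with GSK126. The ARID1A arrays lay below all 6 others, and DMSO and GSK126 overlapped. ARID1A minus DMSO was −0.58 (SE 0.16), and each batch was lower, by −0.48, −0.59 and −0.68. The IL1B and IL1RN differences therefore had opposite signs in each of the 3 batches. A second IL1RN probe, ILMN_1806249, was detected on the DMSO array of batch 3 alone, at 7.33. The third, ILMN_1689734, was detected on no array.

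IL18, the other caspase-1 substrate, gave one of the brightest signals on the arrays. It read 15.96, 15.94 and 15.90 with DMSO, 15.70, 15.88 and 15.90 with ARID1A, and 15.72, 15.97 and 15.85 with GSK126, and all groups overlapped. Raw intensities between 52456 and 65924 lay close to the highest value of any probe, which limits how well this probe can show a rise. ARID1A minus DMSO was −0.11 (SE 0.09), and GSK126 minus DMSO was −0.09 (SE 0.09).

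**Figure D1:**
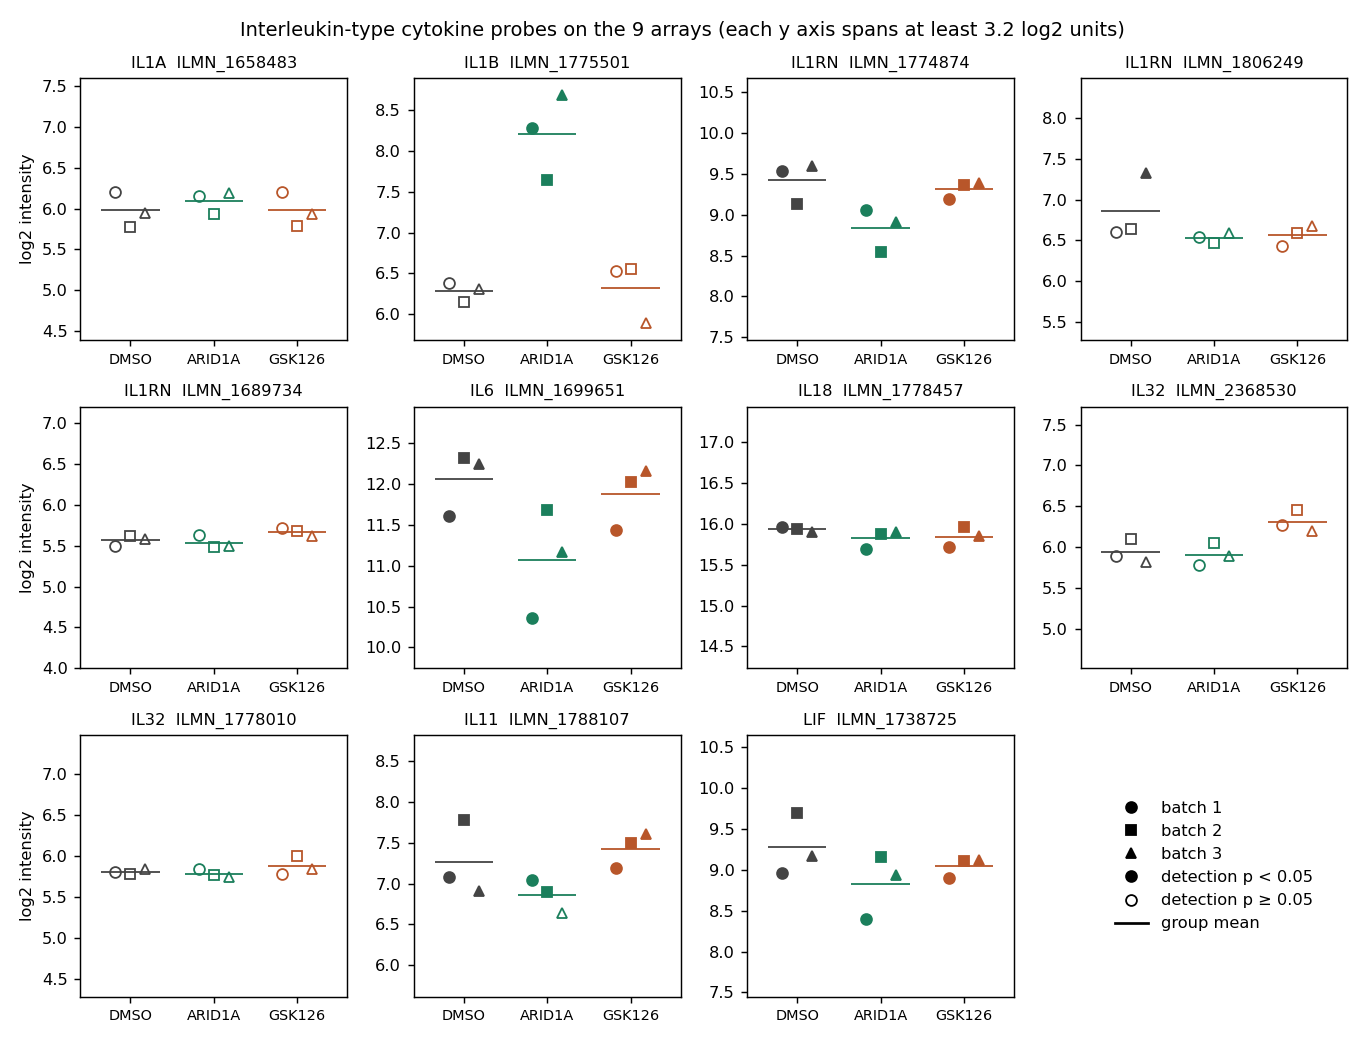
Normalised log2 intensity (vertical axis) of each of the 11 member probes on the 9 arrays, by group; the marker shape gives the batch, a filled marker a detection p below 0.05 and the line the group mean. IL1B is detected on the 3 ARID1A arrays alone, at 7.65 to 8.68, while the IL1A and IL32 probes are detected on none.

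IL6 was bright in every group and was the member with the lowest ARID1A values relative to DMSO. Its probe, ILMN_1699651, read 11.61, 12.32 and 12.25 with DMSO, 10.37, 11.69 and 11.17 with ARID1A, and 11.44, 12.03 and 12.16 with GSK126. The groups overlapped, because the batch 1 array was the lowest of its group in all 3 groups. Within a batch the ARID1A array was always below the DMSO array, by −1.25, −0.64 and −1.08. The mean difference was −0.99 (SE 0.33), or 1.98-fold higher with DMSO, and its SE became 0.15 when batch entered the model as a block. The group means were 12.06 ± 0.39 (SD, n = 3) with DMSO, 11.07 ± 0.67 with ARID1A and 11.88 ± 0.38 with GSK126.

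LIF, a gp130 cytokine that maintains stem cells in the mouse, was measured on all 9 arrays. It read 8.96, 9.70 and 9.17 with DMSO, 8.40, 9.16 and 8.93 with ARID1A, and 8.90, 9.11 and 9.11 with GSK126. These groups overlapped, although the ARID1A array was below the DMSO array in each batch, by −0.56, −0.54 and −0.24. The mean difference was −0.45 (SE 0.22).

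IL11, a gp130 cytokine known from fibrosis and platelet formation, was close to the detection limit. It read 7.09, 7.78 and 6.91 with DMSO, 7.04, 6.89 and 6.64 with ARID1A, and 7.19, 7.49 and 7.60 with GSK126. It was detected on all arrays but the ARID1A array of batch 3. The ARID1A arrays lay below all GSK126 arrays and overlapped with DMSO. ARID1A minus DMSO was −0.40 (SE 0.22), with −0.05, −0.89 and −0.27 by batch, so the mean rested mainly on batch 2. The bound on the IL11 means, which makes no allowance for spread, was 1.26-fold higher with DMSO, and the fitted difference was not past the threshold.

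IL32, a human cytokine that induces further cytokines and has no counterpart in rodents, has 2 probes, and neither was detected on any array. Probe ILMN_2368530 read 5.88, 6.10 and 5.82 with DMSO, 5.78, 6.05 and 5.89 with ARID1A, and 6.27, 6.45 and 6.19 with GSK126. The GSK126 arrays lay above the other 6, but no array passed the detection threshold and no fold is given. The other probe, ILMN_1778010, read 5.75 to 6.01 over the 9 arrays, with overlapping groups.

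Side by side, induced ARID1A went with more IL1B signal and with lower means of the other 5 members measured. The IL18 difference was close to its SE, at −0.11 (SE 0.09), with −0.26, −0.06 and 0.01 by batch. Over the 6 members with a kept probe, the ARID1A minus DMSO difference was positive for IL1B and negative for IL1RN, IL18, IL6, LIF and IL11, with a median of −0.42 against −0.00 over all 12698 genes tested. Since IL1B's difference chose the set, these values are a description. The IL1B probe was kept through the ARID1A arrays alone, so its call is no test. By limma with Benjamini-Hochberg adjustment, IL1B was past the threshold of 0.05 and the other 5 were not. Of all genes tested 2.84% were past it, 2.01% higher and 0.835% lower with ARID1A. With batch as a block IL6 was past it as well, on the lower side, where 6.10% of genes were, 3.82% higher and 2.28% lower. The groups did not overlap for IL1B and IL1RN, as for 25.2% of all genes tested, 13.3% higher and 11.9% lower. Detection on all 3 ARID1A arrays and on none of the 6 others, the pattern of IL1B, was shared by 25 genes, or 0.197%. The 4 members IL1RN, IL6, LIF and IL11 were lower with ARID1A in all 3 batches, as were 3043 genes (24.0%). In cultures of whole cells, fewer cells of a kind and less RNA per cell cannot be told apart.

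Beside these values, markers of leukocytes, the main source of IL-1β in the body, gave no call in ARID1A against DMSO. Of 12 leukocyte markers, CD68, ITGAM and FCGR3A were detected on all arrays, while the defining PTPRC, CD3D, CD3E and CD163 were detected on none. The summed linear level of the 5 with a kept probe was 3632 to 3927 with DMSO, 3484 to 3866 with ARID1A and 3355 to 3648 with GSK126. These ranges overlapped, and the sum was mainly CD68, the brightest of the list at a mean log2 intensity of 11.49. Of 10 fibroblast and endothelial markers, FBLN1 was detected on all arrays and 6 on none. VWF, an endothelial clotting factor, was detected on the 3 ARID1A arrays alone and was at least 1.43-fold higher there than with DMSO. It passed the detection filter through that group alone, so a difference had to appear and no p is given. The summed level of the 2 genes of that list with a kept probe was 4966 to 5884 with DMSO and 4885 to 5948 with ARID1A. It was mainly FBLN1, at a mean log2 intensity of 12.33 against 6.24 for VWF. Whether this level bears on IL1B was not tested.

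**Figure D2:**
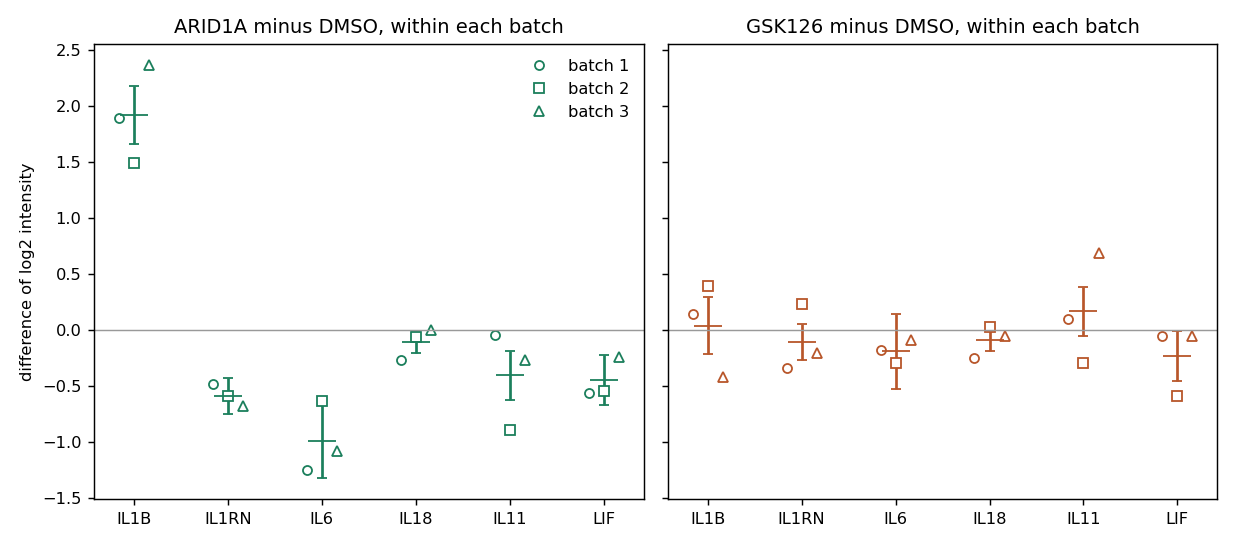
Difference in normalised log2 intensity from the DMSO array of the same batch (vertical axis) for the 6 members with a kept probe, after ARID1A and after GSK126; points are batches, and the bar is the mean with its SE from limma. With ARID1A, IL1B lies at 1.49 to 2.37 and IL6 at −1.25 to −0.64.

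GSK126 moved none of the 6 members past the threshold. The differences from DMSO were 0.04 for IL1B (SE 0.26), −0.10 for IL1RN (SE 0.16), −0.09 for IL18, −0.19 for IL6 (SE 0.33), −0.23 for LIF (SE 0.22) and 0.17 for IL11 (SE 0.22). Their limma adjusted p lay between 0.781 and 0.976, and none of 12698 genes passed (0.00%), with 1185 genes at an unadjusted p below 0.05 and a smallest adjusted p of 0.145. For IL1B the batches went both ways, at 0.14, 0.40 and −0.42. For LIF they were −0.06, −0.59 and −0.06, so that batch 2 set most of the mean. For IL6 they were −0.18, −0.30 and −0.09, and its SE was 0.15 with the block.

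GSK126 against ARID1A shares its ARID1A arrays with the comparison above, and its values are likewise a description. GSK126 minus ARID1A was −1.88 for IL1B (SE 0.26), 0.48 for IL1RN (SE 0.16), 0.80 for IL6 (SE 0.33), 0.21 for LIF (SE 0.22) and 0.02 for IL18 (SE 0.09). For IL11 the difference was 0.57 (SE 0.22), which was not past the threshold. The bound on its means, with no allowance for spread, was 1.42-fold higher with GSK126. For IL1B a call is again no test, for the same reason. IL1B was past the threshold, where 2.50% of all genes were, 0.953% higher and 1.54% lower with GSK126. With the block IL6 was as well, on the higher side, where 4.17% of genes were, 1.81% higher and 2.36% lower. IL1B, IL1RN and IL11 had groups that did not overlap, as had 21.0% of genes, 9.67% higher and 11.4% lower.

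The genes around these cytokines were read from 8 lists that hold 131 genes, 73 of them tested. In ARID1A against DMSO 1 of the 73 rose and 3 fell, where 2.01% of all genes tested rose and 0.835% fell. The receptors gave no call among 9 tested of 13 listed, with a median difference of 0.26 and 5 positive. In GSK126 against DMSO, which shares the DMSO arrays, their median was also 0.26, with 8 positive and no call. With ARID1A against DMSO, IL6ST, the shared gp130 chain, differed by 0.43 (SE 0.14, limma adjusted p = 0.128). Its other probe was near background, detected on 2 of 3 ARID1A and 1 of 3 DMSO arrays, and differed by −0.15, 1.08 and −0.14 in batches 1 to 3. LIFR, the LIF receptor chain, differed by 0.26, 1.09 and 0.40 in batches 1 to 3, with overlapping groups. The bound on its means was 1.39-fold higher with ARID1A, with a limma adjusted p of 0.247 for its fitted difference. Among the other cytokines of these families, 9 of 41 were tested and IL17D, of the IL-17 family, rose by 0.65 (SE 0.12, limma adjusted p = 0.0246), from a mean of 7.47 to 8.11. The IL17D call was lost without DMSO replicate 1 or 2, without any 1 ARID1A replicate, and without any whole batch.

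Inflammasome genes, which process IL-1β and IL-18, gave no call among 8 tested of 15. All 8 differences were negative in ARID1A against DMSO, with a median of −0.16, and all 8 were positive in GSK126 against ARID1A, with a median of 0.26. Over all genes tested these medians were −0.00 and −0.01. These comparisons share the ARID1A arrays. CASP1, which encodes caspase-1, differed by −0.53 (SE 0.16, limma adjusted p = 0.125) in the first. GSDMD, the pore protein through which IL-1β leaves cells, differed by −0.35 (SE 0.10, adjusted p = 0.11). The IL-1 signalling list of adaptors and kinases gave no call among 10 tested, with a median of −0.05. The kinase IRAK1 differed by −0.19 (limma adjusted p = 0.237) and TAB2, an adaptor of the kinase TAK1, by −0.21 (adjusted p = 0.281).

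Among listed NF-kappaB target genes known to respond to IL-1, those tested had negative differences with ARID1A, the group in which IL1B was detected. The list was chosen with earlier results of these data known, so its counts are a description. Of 17 such genes 11 were tested, and all 11 differences were negative. The median was −0.55, against −0.00 over all genes tested. With limma adjusted p below 0.05, 3 fell, where 0.835% of all genes tested did. CCL20, a chemokine for dendritic and T helper cells, fell by 2.35 (adjusted p = 0.02). CXCL1, a neutrophil chemokine, fell by 1.98 (adjusted p = 0.00507). PTGS2, the inducible cyclooxygenase, fell by 1.59 (SE 0.20, adjusted p = 0.00525), and its second probe differed by −1.65. With the block TNFAIP3, an NF-kappaB inhibitor, also fell, by 1.23 (limma adjusted p = 0.00323 with the block and 0.106 without). CCL20, CXCL1 and PTGS2 were not past the threshold together when batch 1, 2 or 3 was left out whole: without batch 1 CCL20 and CXCL1 passed, without batch 3 CXCL1 and PTGS2, and without batch 2 none. CCL20 was also lost without DMSO replicate 1, ARID1A replicate 1 or ARID1A replicate 3. In GSK126 against ARID1A the same 3 genes rose, PTGS2 by 2.31, CXCL1 by 1.57 and CCL20 by 1.98. That comparison shares the ARID1A arrays, and 0.953% of all genes tested were called higher in it. In GSK126 against DMSO none of the 11 passed, with a median of −0.33, 9 negative differences and 2 positive. PTGS2 was positive there, at 0.72 (SE 0.20, limma adjusted p = 0.373) and 0.83 on its second probe. By batch its first probe differed by 0.94, 0.61 and 0.62. In GSK126 against ARID1A the PTGS2 call held without any 1 array or batch. CXCL1 was lost without ARID1A replicate 3 and without each batch, and CCL20 was kept only without DMSO replicate 1, DMSO replicate 3 or GSK126 replicate 3.

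The gp130 signalling list gave no call among 9 tested of 10, with a median of −0.01. PTPN11, the phosphatase SHP2 that couples gp130 to the MAP kinase pathway, differed by −0.43 (SE 0.10, limma adjusted p = 0.0557) and fell with the block (adjusted p = 0.0429). CISH, a feedback inhibitor of STAT signalling, differed by 0.23 (adjusted p = 0.534). STAT3 targets gave no call among 11 tested of 15, with a median of 0.04. MYC, a growth regulator, differed by −0.68 (SE 0.18, limma adjusted p = 0.0865), by −0.52 on its other probe, and fell with the block (adjusted p = 0.0284). BCL3, an NF-kappaB cofactor, differed by −0.30 (adjusted p = 0.204). FGB, the fibrinogen beta chain and an acute phase gene, rose by 1.24 in GSK126 against ARID1A (SE 0.19, limma adjusted p = 0.0125) and by 1.14 on its other probe. The FGB call was lost without GSK126 replicate 1 and without batch 2 or 3. Regulators of cytokine mRNA decay gave no call among 8 tested of 9, with a median of −0.17. ELAVL1, which stabilises AU-rich mRNAs, differed by −0.47 (limma adjusted p = 0.25) and ZFP36L1, which destabilises them, by −0.25 (adjusted p = 0.27).

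**Figure D3:**
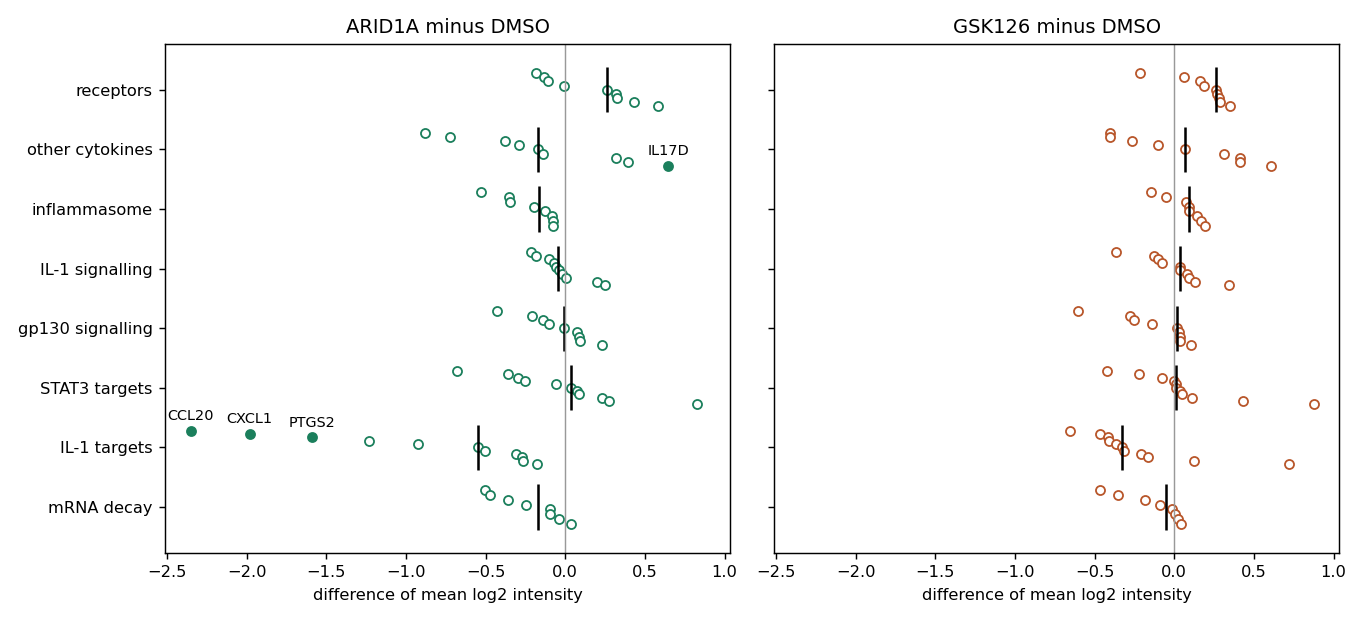
Difference in normalised log2 intensity (horizontal axis) of each tested gene in the 8 pathway lists (rows), for ARID1A minus DMSO and GSK126 minus DMSO. Filled points passed the threshold and the black line is the list median. With ARID1A the list of IL-1 targets lies wholly below 0, with a median of −0.55 and 3 filled points. With GSK126 it reaches from −0.65 to 0.72, with a median of −0.33 and no filled point.

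The genes with profiles most like IL1B over the 9 arrays were EFNB1, LINGO1, CLDN2, PTGES and LRRC32. Likeness was the root mean square difference between log2 profiles that were each centred on their own mean, and it was 0.183 for EFNB1, a membrane ligand of Eph receptors, and 0.208 for LINGO1, a neuronal membrane protein. It was 0.221 for CLDN2, a pore-forming claudin of tight junctions, 0.222 for PTGES, which makes prostaglandin E from the product of cyclooxygenase, and 0.228 for LRRC32, which holds latent TGF-beta at the cell surface. The median over all genes was 0.959. Being chosen for likeness, these genes had to be higher with ARID1A, by 2.21 for EFNB1 and 1.78 for PTGES and by bounds of at least 3.41-fold for LINGO1, 2.39-fold for CLDN2 and 1.82-fold for LRRC32. The nearest profiles to IL6 were looser. L3MBTL1, a chromatin reader, was at 0.317, CCDC150 at 0.331, FAM43A at 0.333, CCNI2 at 0.336 and CHGA, a granule protein of endocrine cells, at 0.344, against a median of 0.610. No other member was among the 5 nearest to either gene.

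**Figure D4:**
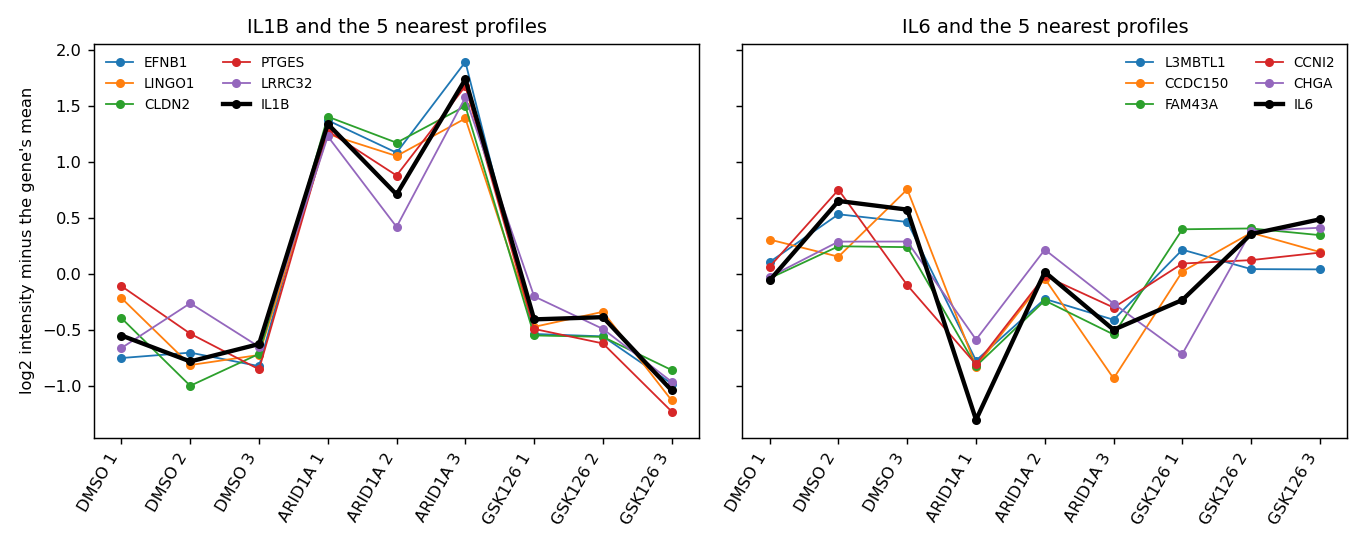
Centred normalised log2 intensity (vertical axis) on the 9 arrays for IL1B and for IL6, each with the 5 genes of nearest profile. The IL1B panel steps up on the 3 ARID1A arrays, and in the IL6 panel batch 1 is the lowest array of IL6 in every group.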

How the data were processed

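RNA of 9 OVISE samples was hybridised to an Illumina expression array. The authors' deposited table gives, per probe and array, a linear intensity and a detection p-value. GenomeStudio is named in the submitters' processing notes, with no version. The intensities are neither normalised nor, as far as their values show, background-subtracted. The authors' deposited value table, also intensity, was used as an alternative. No build is stated for the array in the sources used here.

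Intensities were processed in limma 3.58.1 (R 4.3.3) by neqc, taking the negative controls from the detection p-values, with an offset of 16, quantile normalisation and log2. A probe was kept if its detection p was below 0.05 on 3 or more of the 9 arrays (23014 probes), and the brightest stood for its gene (12698 genes). Of all probes, 30113 had 1 gene symbol, 8 several and 17202 none. Symbols of 30074 probes were taken from RefSeq (GRCh38.p14) by Entrez identifier, whether or not the name changed. All 6 kept member probes came from different genes, and IL1A and IL32 had none.

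A model of 3 group means (lmFit, eBayes, 6 residual degrees of freedom) gave two-sided tests, adjusted by Benjamini-Hochberg over all genes, with a threshold of 0.05. All adjusted p come from this limma model. A probe undetected on part of its dimmer group is given as a bound, which compares means and makes no allowance for spread. The labels' batches pair the arrays: deviations from group means correlated by 0.102 to 0.326 within a batch (9 pairs) and −0.227 to 0.042 between batches (18 pairs). A model with batch as a block was the paired alternative. Precision is limited by the number of arrays.

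The members and gene lists were chosen with earlier results of these data known. Of each list and comparison up to 4 called genes were named, or else the 2 with the smallest p in ARID1A against DMSO, and 5 genes of nearest profile for IL1B and IL6. TNFAIP3 and the marker genes were named after their values were seen. The method was tested on simulated data.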

Additional observations from a re-analysis of the deposited data

How the results depend on the processing

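The comparisons were repeated under 21 other settings, 12 of which left out an array or a whole batch. Over these, 372 differences of single members were compared, and 8 moved by more than the spread between arrays. The sign changed in 13, all with an array or batch left out and none in ARID1A against DMSO. They were small differences that had not passed the threshold, among them IL1B in GSK126 against DMSO, which ranged from −0.14 to 0.27. For IL1B, ARID1A minus DMSO ranged from 1.68 to 2.20 as arrays or batches were left out. GSK126 minus ARID1A for IL1B was −0.85 without background correction and −0.84 in the authors' value table, whose values keep the background that neqc removes. The number of members past the threshold in ARID1A against DMSO was 1, became 0 where only probes detected on all 9 arrays were kept, which removes IL1B by construction, became 2 with the replicate block, and ranged from 0 to 1 as arrays or batches were left out (0 without batch 1 or batch 3). GSK126 against ARID1A gave these same numbers, 1, 0, 2 and 0 to 1. The member counted as 1 is IL1B, whose call is no test for the reason given above. In GSK126 against DMSO it was 0 under every setting run. Of the pathway list genes, 4 passed in ARID1A against DMSO, 7 with the block, 7 in the authors' value table, and 0 to 5 as arrays or batches were left out, the cause of which was not tested. In GSK126 against ARID1A 4 passed, and 1 to 4 as arrays or batches were left out. Over all genes the block raised the calls from 361 to 774 for ARID1A against DMSO and from 317 to 530 for GSK126 against ARID1A, and left 0 for GSK126 against DMSO. The block also called MYC (adjusted p = 0.0338) and TNFAIP3 (adjusted p = 0.00839) in GSK126 against ARID1A by limma. Beyond these and the genes named with it above, it changed no other call among members and pathway lists. Probes near background, IL1B with DMSO or GSK126 and IL11 throughout, limit the size of the differences that could be read.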
